A study of Mus musculus with 2 samples.

Results

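The regions described here are SRCAP peaks that lay far from genes. They were found by pooling the peaks of both SRCAP CUT&Tag replicates, merging overlaps, dropping the mitochondrial chromosome, and keeping regions whose midpoint lay in no annotated transcript, over 50 kb from the nearest transcription start site (TSS) of a protein-coding gene and over 2 kb from every other TSS of GENCODE M21, with under 50% of bases soft-masked as repeats. Of 15653 merged regions, 787 (5.03%) were such gene-poor intergenic regions. Replicate 1 held 229 of them and replicate 2 held 625, a mean of 427 ± 280 (SD, n = 2). Both replicates covered 67 of the 787, or 8.51% (95% Wilson interval 6.76 to 10.7%), against 21.9% of all merged regions.

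Both samples were SYAT cells, a mouse embryonic stem cell line derived from CGR8 in which both Srcap alleles carry YPet and an auxin-inducible degron (AID) and which expresses the OsTir1 receptor. They form 1 group of 2 replicates, labelled SYAT NT, grown for 3 days in serum with LIF and auxinole, which blocks the auxin response, so that tagged SRCAP was kept. The labels and the methods of the study give different concentrations of auxinole. The tag was mapped with an anti-GFP antibody in 200000 cells and 10000 Drosophila nuclei per sample, with a transposition of 1 h. There was no second group and no untagged or antibody control among the files, so no group was compared with another, and the line is a single engineered line. The lists measure no transcripts, so embryonic stem cell markers could not be checked in them. Replicate 1 held 6158 peaks and replicate 2 held 12958, each called in that sample alone, and read depth was unknown.

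SRCAP is the ATPase of a chromatin remodeling complex that replaces histone H2A by the variant H2A.Z, mainly at promoters and also at enhancers. In embryonic stem cells, enhancers can lie far from the genes they act on and are bound by factors such as OCT4 and SOX2. CUT&Tag tethers the Tn5 transposase to the antibody, and Tn5 also has some preference for open DNA.

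The sequences of 6 regions show what these sites look like. Each run is the 300 bp window around the region's midpoint in RefSeq GRCm38 (mm10), with matches to the motif letters used here in capitals. All 6 lie outside GENCODE M21 transcripts, and each is named by its nearest protein-coding gene, as a position only. The first is shown for its OCT4 octamer and SOX letters (ACAAAGG, the reverse strand of CCTTTGT), the Wnt7b region for its many CG dinucleotides and an ETS match, the Sall1 region, 201121 bp from that pluripotency gene, for 2 SOX matches, and the Castor2 region for 2 TEAD matches. The Adgrb1 region holds words that recur within the window, and the Zfp960 region lies beside a RefSeq TSS. Neither holds a motif of the list, so neither has capitals.
Rnf144b region, chr13:47273546-47273845, plus strand: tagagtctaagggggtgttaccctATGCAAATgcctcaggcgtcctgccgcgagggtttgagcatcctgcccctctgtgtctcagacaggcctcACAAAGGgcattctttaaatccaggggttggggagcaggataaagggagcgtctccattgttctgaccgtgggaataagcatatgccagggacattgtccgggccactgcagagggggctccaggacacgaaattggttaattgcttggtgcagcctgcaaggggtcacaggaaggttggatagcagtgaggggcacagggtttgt
Wnt7b region, chr15:85634615-85634914, plus strand: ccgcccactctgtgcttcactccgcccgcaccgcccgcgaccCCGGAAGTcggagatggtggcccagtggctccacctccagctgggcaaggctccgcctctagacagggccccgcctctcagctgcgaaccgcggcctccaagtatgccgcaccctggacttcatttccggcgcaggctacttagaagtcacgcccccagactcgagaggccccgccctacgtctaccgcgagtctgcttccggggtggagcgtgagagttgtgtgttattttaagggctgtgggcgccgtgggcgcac
Sall1 region, chr8:89245133-89245432, plus strand: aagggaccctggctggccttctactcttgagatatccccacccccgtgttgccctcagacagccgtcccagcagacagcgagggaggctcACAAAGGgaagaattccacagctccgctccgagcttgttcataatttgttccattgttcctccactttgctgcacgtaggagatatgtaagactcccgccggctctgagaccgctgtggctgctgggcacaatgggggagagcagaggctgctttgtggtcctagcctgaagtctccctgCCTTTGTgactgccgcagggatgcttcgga
Castor2 region, chr5:134007110-134007409, plus strand: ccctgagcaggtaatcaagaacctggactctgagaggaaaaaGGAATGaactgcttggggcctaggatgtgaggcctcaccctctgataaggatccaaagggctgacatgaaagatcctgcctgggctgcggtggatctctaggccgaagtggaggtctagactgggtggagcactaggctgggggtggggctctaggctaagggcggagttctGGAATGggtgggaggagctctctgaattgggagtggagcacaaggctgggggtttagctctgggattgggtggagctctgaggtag
Adgrb1 region, chr15:74187329-74187628, plus strand: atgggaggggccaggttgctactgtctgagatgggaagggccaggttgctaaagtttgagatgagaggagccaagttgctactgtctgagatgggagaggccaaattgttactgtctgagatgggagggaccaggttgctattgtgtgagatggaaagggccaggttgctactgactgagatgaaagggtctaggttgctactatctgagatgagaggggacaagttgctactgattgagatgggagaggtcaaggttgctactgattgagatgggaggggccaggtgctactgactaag
Zfp960 region, chr17:17004772-17005071, plus strand: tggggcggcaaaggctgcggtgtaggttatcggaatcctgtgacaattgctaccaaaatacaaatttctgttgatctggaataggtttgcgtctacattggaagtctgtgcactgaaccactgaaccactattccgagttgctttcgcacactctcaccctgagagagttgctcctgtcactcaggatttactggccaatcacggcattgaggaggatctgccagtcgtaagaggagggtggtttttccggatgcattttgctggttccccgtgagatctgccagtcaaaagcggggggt

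SRCAP regions were sparser in this sequence than elsewhere. Eligible sequence, which satisfies the position rule, came to 908 Mb, or 34.3% of the 2648 Mb of known sequence, and 506 Mb of it was not soft-masked. Replicate 1 had 0.453 regions per Mb of this unmasked sequence and replicate 2 had 1.24, a mean of 0.845 ± 0.554 (SD, n = 2). The density of unmasked intergenic regions within 50 kb of a protein-coding TSS was 1.75 and 3.98 per Mb, which was 3.87 and 3.22 times the gene-poor density of the same replicate. Regions in transcripts had 1.17 and 2.74 per Mb. With soft-masked regions counted and all known bases as the denominator, gene-poor sequence held 0.815 and 1.80 per Mb, and the density near genes was then 1.91 and 1.84 times as high, in transcripts 1.41 times in each replicate, and within 2 kb of a TSS, where it was 12.2 and 24.9 per Mb, 14.9 and 13.8 times. The order of these classes was the same in both replicates on either basis, while the replicates themselves differed 2.73-fold in their number of gene-poor regions and 2.10-fold in list length.

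Density was also lower farther from genes within the gene-poor sequence. Between 50 and 100 kb from the nearest protein-coding TSS, replicate 1 had 1.03 regions per Mb and replicate 2 had 2.63. Beyond 500 kb the values were 0.170 and 0.470 per Mb, 6.07 and 5.60 times lower. The bin from 50 to 100 kb held 344 regions (43.7%) in 20.7% of the eligible unmasked sequence, and the bin beyond 500 kb held 76 (9.66%) in 24.4% of it. Base composition moved with distance: the median GC of eligible 300 bp tiles was 41.7% in the nearest bin and 35.7% in the farthest. Among tiles of 40 to 50% GC, the nearest and farthest bins held 1.41 and 0.935 regions per 10000 tiles in replicate 1 (27 and 10 regions) and 5.29 and 2.99 in replicate 2 (101 and 32 regions). Among tiles of 50 to 60% GC, they held 15.8 and 4.33 in replicate 1 (65 and 3 regions) and 30.6 and 17.3 in replicate 2 (126 and 12 regions). Tiles under 40% GC held 0.266 and 0.173 in replicate 1 (4 and 6 regions) and 1.20 and 0.376 in replicate 2 (18 and 13 regions). Tiles of at least 60% GC held 126 and 253 in replicate 1 (12 and 2 regions) and 315 and 127 in replicate 2 (30 and 1 regions). The farthest bin was thus lower than the nearest in both replicates below 60% GC, while at 60% or more it was lower in replicate 2 and higher in replicate 1, with 2 and 1 regions behind the far values. The part of base composition in the lower density far from genes was not tested. Regions lay upstream of the nearest protein-coding gene in 55.7% (95% Wilson interval 52.2 to 59.1%) of cases, and 54.8% of eligible unmasked sequence was upstream.

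**Figure D1:**
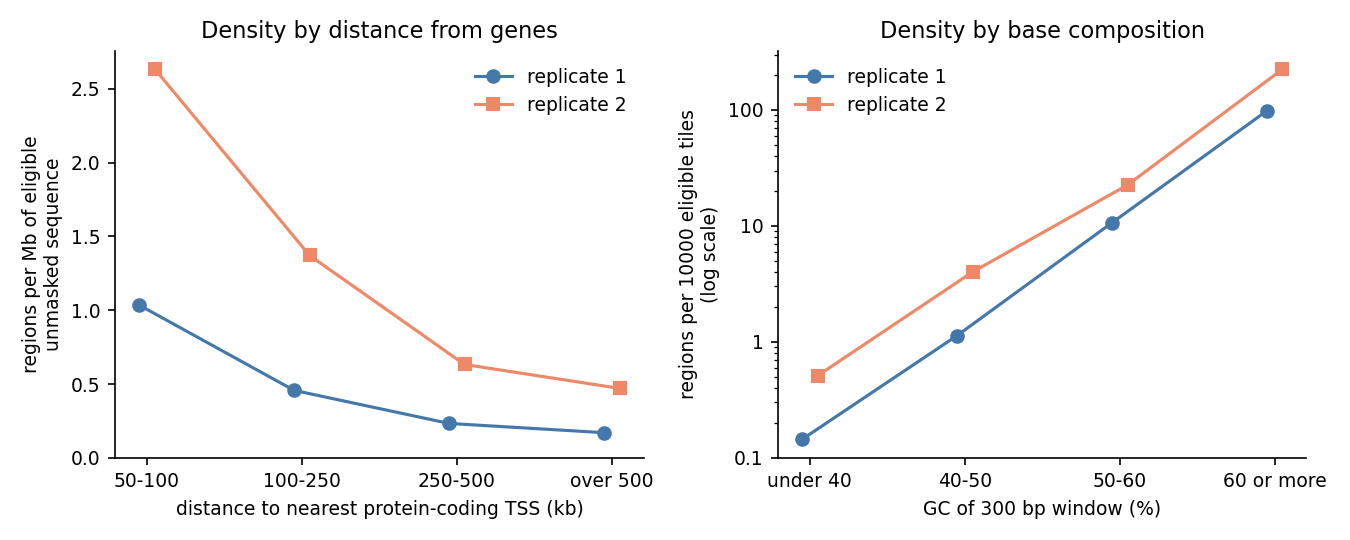
Left, gene-poor SRCAP regions per Mb of eligible unmasked sequence by distance to the nearest protein-coding TSS (kb), and right, regions per 10000 eligible 300 bp tiles by GC of the window (%, log scale), with 1 line per replicate and no error bars, since each point is 1 library. Density goes from 1.03 and 2.63 to 0.170 and 0.470 per Mb with distance, and from 0.144 and 0.510 to 98.3 and 224 per 10000 tiles with GC.

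The gene-poor regions had more GC than eligible sequence as a whole and less than the other classes of SRCAP regions. Their median GC was 50.7% in replicate 1 and 49.0% in replicate 2, a mean of 49.8 ± 1.18% (SD, n = 2), while the 1872839 eligible tiles had a median of 39.0%. Of the replicate 1 and 2 regions, 94.3% and 92.8% were above the tile median. Windows under 40% GC made up 55.5% of tiles and held 67 regions, or 0.144 and 0.510 per 10000 tiles in the 2 replicates. Windows of at least 60% GC made up 0.098% of tiles and held 51 regions, or 98.3 and 224 per 10000 tiles, which was 681 and 439 times as many. Over all 787 the median was 49.3%, against 51.7% for regions in transcripts, 52.3% for intergenic regions near genes, 61.3% for soft-masked gene-poor regions and 62.3% for regions within 2 kb of a TSS, so GC above that of the tiles was shared by these classes. How far library amplification and Tn5 depend on GC in these libraries was not tested.

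**Figure D2:**
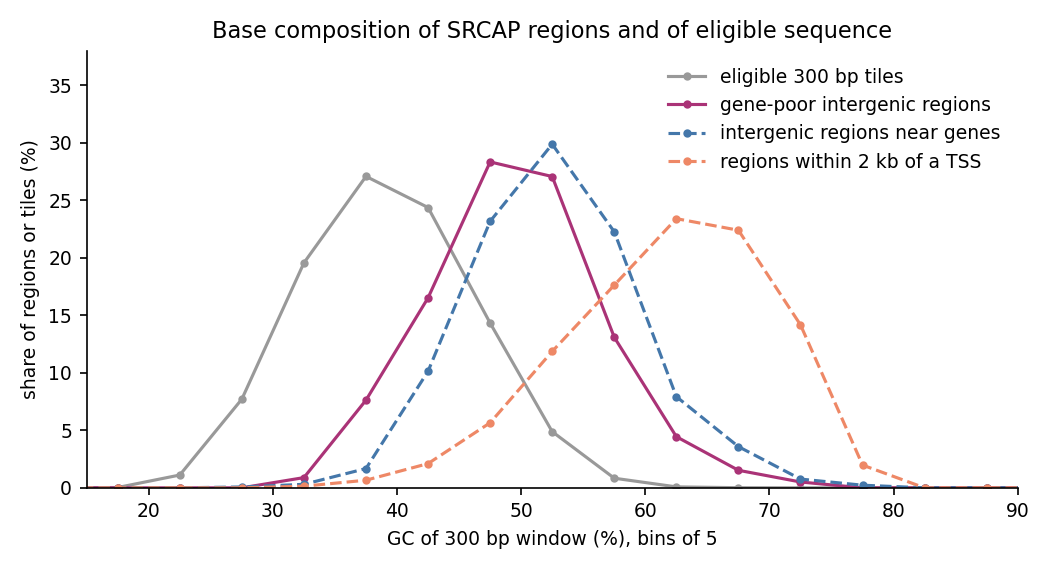
Share (%) of 300 bp windows in bins of 5% GC, for eligible gene-poor tiles, the 787 gene-poor intergenic SRCAP regions, intergenic regions near genes and regions within 2 kb of a TSS. The curve of the gene-poor regions (median 49.3%) sits to the right of the tiles (39.0%), close to the regions near genes (52.3%) and left of those at a TSS (62.3%).

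Regions with more GC were found more often in both lists. The share covered in both replicates was 1.49% of 67 regions under 40% GC, 5.38% of 353 at 40 to 50%, 12.3% of 316 at 50 to 60% and 15.7% of 51 at 60% or more. Scores moved with GC too: the median score in replicates 1 and 2 was 13 and 16 under 40% GC, 23 and 24 at 40 to 50%, 29 and 27 at 50 to 60%, and 32.5 and 32 at 60% or more. The part of score in the sharing by GC was not tested. CpG islands are stretches that keep their CG dinucleotides and mark many promoters. By the letters of a CpG island (at least 50% GC and an observed over expected CG ratio of at least 0.6), 31 regions (3.94%) were CpG-rich, against 0.073% of eligible tiles and 62.6% of regions within 2 kb of a TSS. The share was higher, 7.62% and 9.76%, in regions in transcripts and in intergenic regions near genes. Both replicates covered 7 of the 31, or 22.6% (95% Wilson interval 11.4 to 39.8%), and 60 of the other 756, or 7.94% (6.21 to 10.1%). Without multi-copy regions (at least 50% of their 31-base words found elsewhere in the assembly), 5 of 26 CpG-rich regions (19.2%, 8.51 to 37.9%) were in both, an interval that overlaps that of the others.

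The 7 CpG-rich regions in both lists lay by genes of several kinds. A region of 62% GC scored 57 in replicate 1 and 48 in replicate 2 and lay 76639 bp from a TSS of Hmga2, a chromatin protein of embryonic cells. Another, of 63.3% GC, scored 43 and 140 and lay 68225 bp from Axin2, a negative regulator and target of Wnt signaling. The region of the sequence shown for Wnt7b, a Wnt ligand, scored 64 and 133, had 66.7% GC and lay 52292 bp from that gene and 169 bp from the RefSeq TSS of D130051D11Rik. The other 4 had Gm8797, Olfr291, an olfactory receptor gene, Gm31371 and Gm21119 as nearest coding genes. Their scores in replicates 1 and 2 were 62 and 129 by Gm8797, 34 and 98 by Olfr291, 52 and 163 by Gm31371, and 100 and 193 by Gm21119. Those by Gm8797 and Gm21119 were multi-copy. The remaining 24 CpG-rich regions were in 1 list only, and 2 of them are named here. One lay 2372 bp from the GENCODE TSS of Mir17hg, the host transcript of a microRNA cluster, had 71.7% GC and 40 CG dinucleotides and scored 24 in replicate 2. The other lay 51821 bp from Hoxc4, a homeobox gene, and scored 22 in replicate 2. These 2 were picked after their values were seen.

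The rule limits how near a TSS of the GENCODE M21 set a region can lie, and a second annotation placed a few of the regions at starts of transcripts. Of the 787, 50 (6.35%) lay within 2 kb of a RefSeq TSS and 33 (4.19%) within 500 bp, against 1.43% and 0.382% of eligible unmasked sequence. In replicate 1 the share within 2 kb was 9.61% and in replicate 2 it was 6.24%, and within 500 bp these shares were 7.42% and 4.0%. Of these 50, 11 (22.0%) were covered in both replicates. Without them, 737 regions remained and 7.60% were in both. A RefSeq gene or pseudogene held the midpoint of 121 regions (15.4%), against 8.60% of the sequence.

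**Figure D3:**
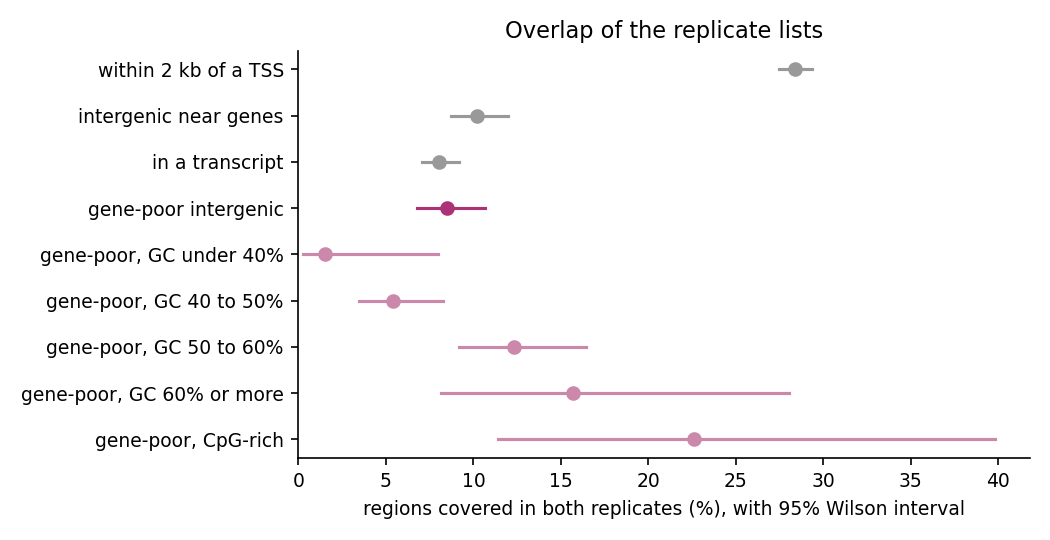
Share (%) of merged regions covered in both replicates, as points with 95% Wilson intervals (counting error only), for 4 classes of SRCAP regions and for gene-poor intergenic regions by GC and CpG content. Gene-poor regions (8.51%) lie beside regions in transcripts (8.05%) and near genes (10.2%) and below those within 2 kb of a TSS (28.4%), and within them the share goes from 1.49% to 15.7% with GC.

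RefSeq also lists 1019 enhancers, of which 620 come from the VISTA collection of elements tested in transgenic mouse embryos, and 172 of the 1019 were centred in eligible sequence. Of the gene-poor regions, 10 (1.27%) lay in such an element, each wholly inside it, while enhancers covered 0.057% of eligible unmasked sequence. The share was much the same in the most similar SRCAP regions, 0.991% of intergenic regions near genes (13 of 1312) and 0.933% of regions in transcripts (24 of 2571). Among gene-poor regions it was 1.31% in replicate 1 (3 regions) and 1.28% in replicate 2 (8 regions). Only the region by Hmga2 was covered in both replicates, with the scores given above, and its VISTA element was active in the neural tube, hindbrain, forebrain, branchial arch and genital tubercle. A region 227341 bp from Sall1, a zinc finger regulator of development and pluripotency, which is not the one whose sequence is shown, scored 52 in replicate 2 and its element was active in midbrain and hindbrain. By Zeb2, a repressor in neural crest and neural cells, a region in a forebrain element scored 42 in replicate 2. The region by Mycn, a MYC family factor, scored 24 in replicate 2 and sat in a forebrain and midbrain element. The remaining VISTA elements with a region had Sox13, Atp11b, Mn1, Nufip1 and Nepro as nearest coding genes, with scores of 29, 24 and 22 in replicate 2, 25 in replicate 1 and 14 in replicate 2, in that order. The tenth element, 115374 bp from Med13l, a Mediator subunit gene, is listed as activating a Pou5f1 promoter in reporter assays in mouse embryonic stem cells, and its region scored 51 in replicate 1. Of the 9 VISTA elements with a region, 8 (88.9%, 95% Wilson interval 56.5 to 98.0%) were listed with activity in forebrain, midbrain or hindbrain, against 63 (45.0%) of the 140 VISTA elements centred in eligible sequence and 43.2% of all 620. Among VISTA elements with an SRCAP region near genes it was 7 of 12 (58.3%, 31.95 to 80.7%), and among those with a region in a transcript 13 of 21 (61.9%, 40.9 to 79.2%), intervals that overlap that of the 9. This count was made after the elements had been seen, and of the 8 elements only the one by Hmga2 had a region in both lists.

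The score of a region was the peak caller's whole-number score, with a minimum of 13 in both lists, and serves only to rank within a list. The median over gene-poor regions was 23 in replicate 1 (13 to 127) and 24 in replicate 2 (13 to 459). Scores of at least 50 were reached by 24 regions in replicate 1 and 64 in replicate 2. The stronger a region was in one list, the more often the other list held it. In replicate 1, 19.4% of regions scoring under 20 and 83.3% of those scoring at least 50 were also in list 2. In replicate 2 the shares were 2.38% and 42.2%. For regions within 2 kb of a TSS the same shares were 40.7% and 87.8% in replicate 1 and 8.25% and 54.8% in replicate 2. When both lists were first limited to peaks scoring at least 50, 16 of 73 gene-poor regions (21.9%) were in both, against 19.8% of 4290 merged regions.

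Over the 67 regions in both lists, Spearman's rho of the scores was 0.717 and Pearson's r of log10 scores was 0.731, as descriptions over regions that share the same 2 libraries. Without multi-copy regions rho was 0.673 over 61.

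**Figure D4:**
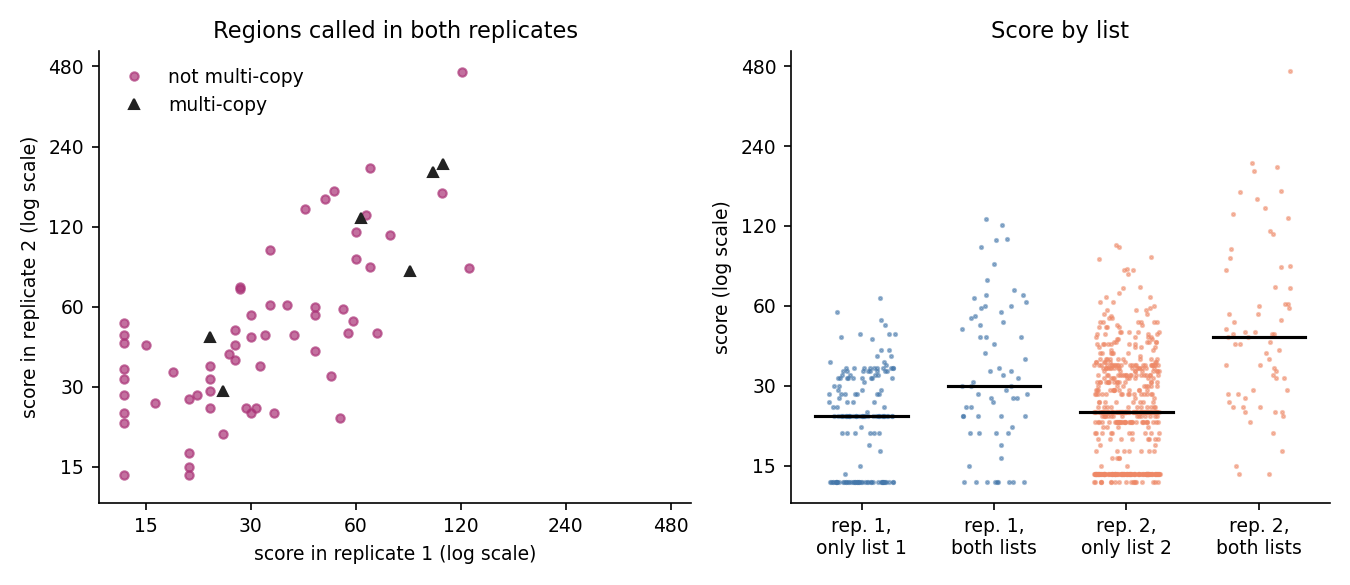
Left, peak score in replicate 1 against replicate 2 (both log scale) for the 67 gene-poor regions in both lists, with multi-copy regions as triangles. Right, scores in each list for regions in that list only and in both, with bars at the medians, which are 23 and 30 in replicate 1 and 24 and 46 in replicate 2.

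The 10 strongest regions in both lists, ranked by the worse of their list ranks, were of several kinds. The first, at chr18:3005343-3005964, scored 121 and 459 in replicates 1 and 2, ranks 131 and 14 of the whole lists. Its nearest coding gene was Vmn1r238, a vomeronasal receptor gene, at 117758 bp. Multi-copy sequence made up 3 of the 10: the regions by Gm10324 (chr13:65991023-65991591), Gm21119 (chr8:20550053-20550686) and Gm8797 (chr3:5860404-5860735) scored 107 and 207, 100 and 193, and 62 and 129. In these, 82.9%, 80.5% and 75.8% of the 31-base words also occurred elsewhere in the assembly. Below the limit of 50% for multi-copy regions, these shares were still 22.1% by Vmn1r238, 32.4% by Adgrb1 and 37.8% by Zfp960. The study sequenced paired reads longer than these words and describes keeping unique alignments. How well reads could be placed in these 6 regions was not measured.

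Of the other 6, the region by Adgrb1, an adhesion receptor gene, was at chr15:74187036-74187921 and scored 106 and 161, 328716 bp from that gene. The region by Castor2, a gene of the arginine-sensing CASTOR complex of the mTORC1 pathway, was at chr5:134006840-134007680 and scored 66 and 200. The one by Zfp960, a zinc finger gene, was at chr17:17004651-17005193, scored 75 and 112 and lay 194 bp from the RefSeq TSS of Gm51425. The Wnt7b region at chr15:85634425-85635105 is described above. The X-linked region by Rab39b, a vesicle trafficking GTPase gene, was at chrX:75673935-75674475 and scored 60 and 115. The one by Rnf144b, an E3 ubiquitin ligase gene, was at chr13:47273504-47273888, scored 60 and 91 and carried the octamer and SOX letters shown earlier.

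The 3 strongest regions of each list alone are given with their scores. In replicate 1 they were by Slc38a4, an amino acid transporter gene (64), Pde4d, a cAMP phosphodiesterase gene (57), and Rpap3, an RNA polymerase assembly gene (53). In replicate 2 they were by Sertad2, a regulator of transcription (102), Igfbp3, a binding protein of insulin-like growth factors (100), and Ccdc54 (92). All 6 had 0% of their 31-base words elsewhere, and their GC ran from 49.3% to 62%.

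Merged gene-poor regions had a median width of 318 bp, close to the 317 bp of intergenic regions near genes and the 310 bp of regions in transcripts. Their peaks had a median width of 297 bp in replicate 1 and 321 bp in replicate 2, and merged regions ran from 235 to 1266 bp. The widest, at chr12:113335401-113336666, lay in the RefSeq immunoglobulin heavy chain locus Igh, 5511 bp from the TSS of Ighg1, scored 25 and 29, and was multi-copy (67.9% of its 31-base words elsewhere). Its strongest peak was 651 bp wide in replicate 1 and 619 bp in replicate 2, so neither spanned the region. Its width thus comes from merging, for which an overlap of 1 bp is enough. Across the 787, 20 regions (2.54%) were multi-copy, 10 of them in replicate 1 and 16 in replicate 2, and 547 (69.5%) had no word elsewhere. Both replicates covered 6 of the 20 multi-copy regions and 61 of the other 767 (7.95%). Among soft-masked gene-poor regions, which the rule leaves out, 1211 were found, 75.8% were multi-copy and 25.8% were covered in both replicates.

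Words that recur inside a window were measured after the printed sequences had been seen. In 12 regions (1.52%) at least 20% of the 12-base words occurred more than once within the 300 bp window, against 0.854% of eligible tiles. The share was 2.62% in replicate 1 (6 regions) and 1.44% in replicate 2 (9 regions, 95% Wilson interval 0.759 to 2.71%, which holds the tile share). It was 1.83% of regions in transcripts and 1.37% of intergenic regions near genes. The regions by Adgrb1 (35.3%), Rab39b (26.3%) and Igh (78.2%, merged as described above) were the 3 of these 12 that both replicates covered.

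For the transcription factor motifs, exact letters were searched on both strands in the 300 bp windows. The SOX letters CCTTTGT were in 84 regions, or 10.7% (95% Wilson interval 8.70 to 13.02%), against 6.40% of eligible tiles, with 10.5% in replicate 1 and 10.7% in replicate 2. Intergenic regions near genes had them in 9.07%, inside that interval. The OCT4 octamer ATGCAAAT was in 24 regions, or 3.05% (2.06 to 4.50%), against 2.64% of tiles, and the difference was within the interval. Among other factors of the pluripotent state, the ESRRB letters TCAAGGTCA were in 0.635% of regions and 0.551% of tiles, the KLF letters CCACACCC in 2.54% and 1.23%, and the STAT3 letters TTCCNGGAA in 1.52% and 0.831%. In intergenic regions near genes the ESRRB, KLF and STAT3 letters were in 1.30%, 4.57% and 0.991%. The STAT3 matches were all in replicate 2 (12 regions), and so were the ESRRB matches (5 regions). For each, 0 of 229 regions in replicate 1 allows a share of up to 1.31%.

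GC-rich promoter motifs were more frequent than in the eligible tiles and rarer than at TSSs. The SP letters GGGGCGGG were in 2.80% of regions, 0.391% of tiles and 19.7% of regions within 2 kb of a TSS. The ETS letters CCGGAAGT were in 1.14%, 0.132% and 4.18%. The YY1 letters AAGATGGCG were in 0.635%, 0.096% and 2.15%, and in 25.8% of the soft-masked gene-poor regions. The CTCF letters AGGGGGCG were in 0.635%, 0.133% and 7.85%, the NRF1 letters GCGCATGCG in 0.127% (1 region, with the tile share inside its interval), 0.027% and 1.92%, and the NFY letters CCAATCAG in 1.78%, 0.961% and 4.18%. The MYC E-box CACGTG was in 4.32%, 2.20% and 7.42%, with 2.62% in replicate 1 (6 regions), close to the tiles, and 4.96% in replicate 2. In intergenic regions near genes the SP letters were in 5.72%, the ETS letters in 0.915% and the E-box in 5.87%. The AP-1 letters TGANTCA (10.9% against 10.7% of tiles) and the TEAD letters GGAATG (17.3% against 16.4%) were about as frequent as in the tiles. Among the 67 regions in both lists they were in 19.4% (13 regions) and 23.9% (16 regions), while the ESRRB, STAT3, CTCF and NRF1 letters were in 0. The SP, ETS, YY1, CTCF and NRF1 letters are mostly G and C, while the OCT4 octamer and AP-1 letters are mostly A and T. The part of the regions' higher GC in any of these shares, also those close to the tiles, was not tested.

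**Figure D5:**
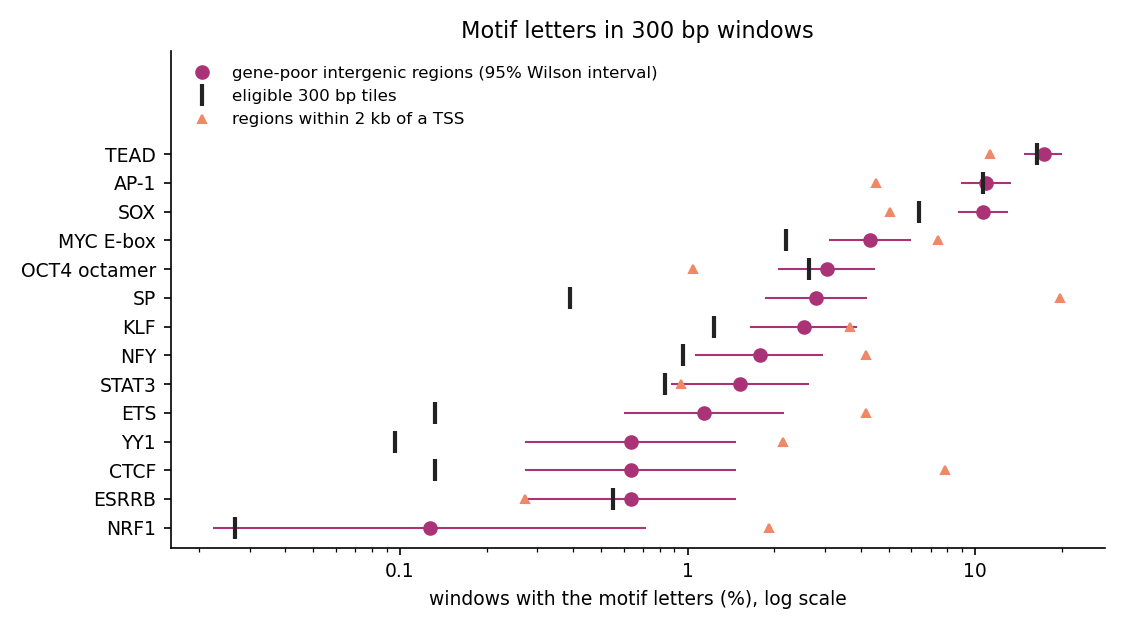
Share (%, log scale) of 300 bp windows that hold each motif's letters, for the 787 gene-poor intergenic regions (points, 95% Wilson intervals for counting error), all eligible gene-poor tiles (bars) and regions within 2 kb of a TSS (triangles). SP, ETS, KLF and SOX points stand to the right of their tile bars, while AP-1, TEAD, OCT4 octamer, ESRRB and NRF1 intervals hold their tile bars.

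The median distance to the nearest protein-coding TSS was 111528 bp, 443 regions (56.3%) were beyond 100 kb, and 18 were beyond 1 Mb. The farthest lay 1843017 bp from Pik3c3, a lipid kinase gene, and scored 14 in replicate 2. At the limit of the rule, the 2 nearest regions kept lay 50026 bp from Zfp64 and 50328 bp from Kdm7a and scored 19 and 14 in replicate 2. The 2 nearest ones left out lay 49932 bp from Olfr275 and 49797 bp from Abcd3 and scored 24 and 14 in replicate 2. For 710 regions (90.2%) the nearest TSS of any kind belonged to a transcript of a gene that does not code for protein.

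The 787 regions had 619 distinct nearest protein-coding genes, and 29 genes were nearest to 3 or more. Of the 619 genes, 99 (16.0%, 95% Wilson interval 13.3 to 19.1%) had an SRCAP region in a promoter window in both replicates, against 2658 (12.1%) of 21938 protein-coding genes. For the nearest genes of intergenic regions within 50 kb of a TSS the share was 15.1% (13.2 to 17.2%), with an interval that overlaps the former. Adgrl2, a latrophilin adhesion receptor gene, and Ttc29, a gene of the sperm flagellum, each had 5 regions, and so did Pik3c3. Foxo1, a forkhead factor gene, Sall1, Smim15 and Ythdf3 each had 4.

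Genes of developmental transcription factors, taken by their symbols (Sox, Fox, Hox, Pax, Irx, Sall and other families), were nearest to 47 regions, or 5.97% (95% Wilson interval 4.52 to 7.85%), against 3.18% of eligible unmasked sequence. Of these 47, 1 was in both replicates, where 8.51% of all gene-poor regions were. By number of regions, Foxo1 (4, scoring up to 65 in replicate 2) and Sall1 (4) led this group. The Iroquois homeobox genes Irx3 and Irx5 followed with 3 regions each, Irx5 scoring up to 82 in replicate 2, and Irx4 had 2. The one in both lay 160488 bp from Sox11, a neural progenitor factor, and scored 69 and 48 in replicates 1 and 2. Single regions lay by Gata6 (53410 bp, score 23 in replicate 1), a factor of primitive endoderm, by Nr2f2 (422495 bp, score 40 in replicate 2) and by Tbx20 (104467 bp, score 52 in replicate 2), both factors of heart development. Adhesion, synapse and ion channel genes went the other way, with 33 regions (4.19%) in 8.61% of the sequence. Zfp zinc finger genes had 22 regions (2.80%) in 1.26%, and sensory receptor genes 6 (0.762%, 95% Wilson interval 0.35 to 1.65%) in 0.504%, a share inside the interval. Of these 6, 4 were in both replicates, so that they made up 2.18% of the regions of replicate 1 and 0.800% of those of replicate 2. Intergenic regions near genes, which lie in other sequence, had developmental factor genes nearest in 2.74% and adhesion, synapse and ion channel genes in 0.762%. For Zfp genes their share was 3.05% and for sensory receptor genes 1.37%. The shares of sequence were not matched for distance or GC, with which density moved. Their part in any of these gene lists was not tested.

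Pluripotency genes were nearest to 10 regions, or 1.27% (95% Wilson interval 0.692 to 2.32%), against 0.762% of eligible unmasked sequence, and 0 of the 10 were in both replicates, which allows a share of up to 30%. They were nearest to 1.07% of intergenic regions near genes, inside the interval of the 1.27%. Sall1 had 4, at 112783, 201121, 227341 and 538722 bp, with scores of 22, 25, 52 and 19 in replicate 2. Mycn had 3, with scores of 24 and 14 in replicate 2 and 39 in replicate 1. Zfp42, the gene of the pluripotency marker REX1, had 1 at 100519 bp (24 in replicate 2). Jarid2, a Polycomb partner gene, had 1 at 144734 bp (25 in replicate 2), and Tbx3, a T-box factor gene, had 1 at 423884 bp (23 in replicate 1). Of these 10, the one at 227341 bp from Sall1 was the only one with a score of at least 50.

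Gene-poor regions seldom lay close together. Within 12447 bp of another such region, measured between midpoints, were 57, in 26 clusters, and the largest clusters had 3 regions. This count depends on the lists and the limit: it was 5 without replicate 2, 41 without replicate 1 and 157 within 50 kb. The 5 clusters of 3 lay by Gm9887, Smim15, Nufip1 and Tsc22d1, Foxo1 and Gnat3. The cluster between Nufip1, a gene of ribonucleoprotein assembly, and Tsc22d1, a leucine zipper gene, held regions scoring 24 and 25 in replicate 1 and one covered in both with 34 and 61. The cluster by Foxo1 scored 26, 43 and 65, all in replicate 2. The median distance to the nearest other SRCAP region of any class was 74122 bp.

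Chromosomes differed in density, per Mb of eligible unmasked sequence. The X chromosome held 15 regions, at 0.179 per Mb in replicate 1 and 0.328 in replicate 2, which was 0.377 and 0.251 times that of the autosomes. Chromosomes 11 and 13 had 0.792 and 0.784 in replicate 1 and 1.74 and 1.69 in replicate 2. Chromosome 8 had the most regions, 66, at 0.558 and 2.05 per Mb. Chromosome 9 held 44 regions, of which 0 were in both replicates, which allows a share of up to 6.82%. Of all gene-poor regions, 8.51% were in both. Chromosome 19 held 10 regions, also with 0 in both, and chromosome 9 was picked after the counts had been seen. The Y chromosome held 0 regions in 1.92 Mb of eligible unmasked sequence, which allows up to 1.56 per Mb. These limits take a count of 0 as at most 3 and cover counting error only.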

How the data were processed

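The authors deposited 1 peak list per sample, called per the labels with STAR, Picard and MACS2 on mm10 and dm6. The authors' peak caller computed the score of each peak, which they deposited as a whole number. The methods of the study describe unique alignments, duplicate removal, a chromosome filter, scaling by Drosophila reads and blacklist exclusion for ChIP-seq and CUT&Tag together, and whether all were applied here is unknown, since each list held 6 mitochondrial peaks. The study lists its tool versions for all genomic data together, with a later MACS than the labels name, so which version called these peaks is unclear. Depth was unknown, so scores and peak numbers are not comparable between the lists, and all intervals cover counting error only.

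Overlaps of at least 1 bp were merged here, and the strongest peak of a list stood for a merged region. Motifs, GC and CG dinucleotides were read in 300 bp around the midpoint. Eligible tiles were all 300 bp tiles centred in eligible sequence, without N and under 50% soft-masked. Promoter windows ran from 1000 bp upstream to 500 bp downstream of a TSS. Sequence, RefSeq genes and GENCODE M21 were all of GRCm38. The study describes its replicates in general as cultured and treated independently, the labels add nothing for these 2, and no test was run, since there is 1 group. Regions named were the 10 strongest in both lists, the 3 strongest of each list alone, those nearest to a pluripotency gene, the extremes of width and distance, and the clusters of 3; others were chosen after their values were seen. The members and the lists of genes and motifs were chosen with earlier results of these data known. The code was tested on simulated regions. Word copies were counted with numba 0.67.0 and intervals computed with scipy 1.17.1 under Python 3.11.15.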

Additional observations from a re-analysis of the deposited data

How the results depend on the processing

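Of 93 values under 14 alternatives, 66 moved by less than the spread of the replicates or the counting interval, or for counts by less than 1.5 times. For density, score, width and GC that spread was the SD of 2 replicates. Leaving out 1 replicate moves a mean of 2 by less than this SD, so for these 4 results it shows nothing about stability. The SD of the density was wide (0.554 per Mb), so 0.359 per Mb with lists of equal length was not counted as moved. A limit of 100 kb gave 443 regions, 31 in clusters, 6.32% in both replicates and a median GC of 48.3%. Under 25% soft-masked bases, the mean of the replicates' median scores was 24.5. With peaks scoring at least 50 there were 73 regions, 0.088 per Mb, a median score of 62.5, width of 392 bp and GC of 53.1%. Of these 73, 53.4% held a motif, 6.85% were multi-copy, 0 were in clusters and 21.9% were in both replicates (all merged regions 19.8%), and 6.94% of their nearest genes had a promoter region in both (2.99% of all protein-coding genes). With the replicate 2 list at the length of list 1 there were 322 regions, 20 in clusters, 4.35% multi-copy and 12.7% in both (all merged regions 27.2%), with a median score of 36 and width of 344 bp. Counting as shared only pairs in which each peak covered 50% or more of the other left 6.23% in both (all merged regions 16.7%), windows of 500 bp held a motif in 64.9%, and clusters within 50 kb held 157 regions. Leaving out 1 replicate gave 228 to 628 regions, 5 to 41 in clusters and 2.39 to 4.82% multi-copy. Without a replicate, the shares that need both replicates have no value. No paired analysis was possible because the series has a single group. Removing regions by RefSeq TSSs and removing CpG-rich regions were added after the data had been seen. Unknown depth, 2 libraries and the absence of a control limit what these lists show: a region of 1 list cannot be told from noise in that library, and the cause of each shift was not tested.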
